A study of Mus musculus with 8 samples.

Results

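The 4 fibroblast growth factor (FGF) receptor genes Fgfr1, Fgfr2, Fgfr3 and Fgfr4 and 5 genes that ERK signaling induces as its own brakes, Spry1, Spry2, Spry4, Dusp4 and Dusp6, were followed in germline stem (GS) cells. GS cells are cultured spermatogonial stem cells. The 9 genes were chosen by name and were taken from the 31010 genes of the deposited RNA-Seq table, in which each had 1 row. The table held 8 GS cell lines of WT genotype on the B6 background, cultured with FGF2 and GDNF and grown on embryonic fibroblasts. Control-F1 lines 29, 37, 44 and 45 came from mice born by natural mating, and ICSI-F1 lines 11, 17, 20 and 21 from mice conceived by intracytoplasmic sperm injection (ICSI), the placement of a sperm directly in the oocyte. The study enriched the founder cells with an antibody to CD9 and removed fibroblasts by plating on gelatin. The line numbers recur as numbers of F1 animals in the study's supplement, so the lines may stem from separate mice, but no source states it for all of them. The p-values measure only the spread between these lines.

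FGF2 bound to its receptors activates the RAS-RAF-MEK-ERK cascade, and together with GDNF it sustains self-renewal of spermatogonial stem cells in culture. Active ERK raises transcription of its own inhibitors. Sprouty proteins (Spry1, Spry2, Spry4) dampen signaling between the receptor and RAS or RAF, and the dual-specificity phosphatases DUSP6 in the cytoplasm and DUSP4 in the nucleus remove phosphate from ERK. The mRNA of these feedback genes is therefore widely used as a readout of pathway output.

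The sample titles were written in 2 styles. Lines 29, 37, 11 and 17 had titles with hyphens between the words (set H) and lines 44, 45, 20 and 21 had titles with low lines between the words (set U), so that each style held 2 lines of each group. The submitters' processing notes also named different software for the styles: STAR 2.7.9a, cutadapt 3.4 and HTSeq 0.13.5 for set H, and STAR 2.6.0c, cutadapt 1.16 and HTSeq 0.11.2 for set U. The study's methods named the versions of set H for all 8 lines. Between 24711188 and 26665826 reads were recovered per library in set H and between 32360827 and 44283874 in set U. Title style, software and depth therefore moved together and cannot be told apart here. The title sets were compared beside the study's groups for this reason.

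Fgfr1 was the main FGF receptor mRNA in these libraries, in which fibroblast markers were also detected. Fgfr1 (ENSMUSG00000031565, GRCm38 chr8:25513654-25575718, plus strand, protein coding) was at 19.6, 16.5, 23.4 and 22.1 FPKM in control lines 29, 37, 44 and 45. It was at 16.4, 17.4, 22.8 and 19.1 FPKM in ICSI-F1 lines 11, 17, 20 and 21. FPKM are fragments per kilobase of gene, scaled to the library, so levels can be set side by side between genes. The lowest and highest Fgfr1 values differed by a factor of 1.43, the narrowest range of the 9 genes, and Fgfr1 made up 86.5% to 90.8% of the summed FPKM of the 4 receptors.

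The other receptors were near or below 1 FPKM. Fgfr3 (ENSMUSG00000054252, chr5:33721674-33737068, plus strand) was at 1.35, 1.34, 0.887 and 1.57 FPKM in the control lines and at 1.498, 1.43, 1.11 and 1.79 FPKM in the ICSI lines, in the same line order. Fgfr2 (ENSMUSG00000030849, chr7:130162451-133123350, minus strand) was at 0.709, 0.594, 1.25 and 0.540 FPKM in control-F1 and at 0.699, 0.738, 1.09 and 0.727 FPKM in ICSI-F1 lines. Fgfr4 (ENSMUSG00000005320, chr13:55152640-55168759, plus strand) was at 0.224, 0.577, 0.233 and 0.205 FPKM in control-F1 and at 0.365, 0.411, 0.137 and 0.319 FPKM in ICSI-F1 lines. Fgfr4 rested on 15 to 51 reads per library, and Fgfr2 on 153 to 424. Each receptor had reads in every library. A count of 0 would have allowed 0.0680 to 0.120 FPKM in a gene of 1 kb, taking 3 reads as the limit, which covers counting error only. The exons of Fgfr1, Fgfr2, Fgfr3 and Spry1 overlap those of another annotated gene (Gm16159, Ctbp2, G630022F23Rik and Gm42922), and the strandedness of the libraries is uncertain, so reads in the shared stretches may be missing or misassigned.

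The Sprouty genes each varied more between lines than Fgfr1, with lowest and highest values differing by a factor of 2.42 to 3.39. Spry2 (ENSMUSG00000022114, chr14:105891947-105896819, minus strand) was at 30.6, 17.6, 42.8 and 34.4 FPKM in control-F1 and at 25.2, 25.9, 30.6 and 32.8 FPKM in ICSI-F1 lines. Spry4 (ENSMUSG00000024427, chr18:38586247-38601415, minus strand) was at 12.8, 19.1, 34.8 and 35.4 FPKM in control-F1 and at 13.6, 10.4, 31.3 and 26.3 FPKM in ICSI-F1 lines. Spry1 (ENSMUSG00000037211, chr3:37639947-37644598, plus strand) was at 5.76, 4.17, 6.70 and 12.1 FPKM in control-F1 and at 4.75, 4.54, 10.1 and 5.39 FPKM in ICSI-F1 lines. For Spry4 every line of set U lay above every line of set H, as for 16.0% of the 12000 genes with a mean of 1 FPKM or more. The control and ICSI ranges overlapped for all 3 Sprouty genes.

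The phosphatase genes had the widest ranges among the feedback genes. Dusp6 (ENSMUSG00000019960, chr10:99263231-99267489, plus strand), the cytoplasmic ERK phosphatase, was at 45.9, 65.9, 198 and 145 FPKM in control-F1 and at 68.1, 62.0, 150.2 and 136 FPKM in ICSI-F1 lines. It was the highest of the 9 genes in all 8 lines and took 43.3% to 65.4% of the summed FPKM of the 5 feedback genes. Dusp4 (ENSMUSG00000031530, chr8:34807297-34819894, plus strand), the nuclear phosphatase, was at 11.0, 6.63, 20.9 and 30.0 FPKM in control-F1 and at 8.53, 8.001, 34.1 and 12.4 FPKM in ICSI-F1 lines. Both genes had their 4 highest values in set U and their 4 lowest in set H, in control-F1 and in ICSI-F1 lines alike. Of the 12000 genes with a mean of 1 FPKM or more, 16.0% had this pattern.

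**Figure D1:**
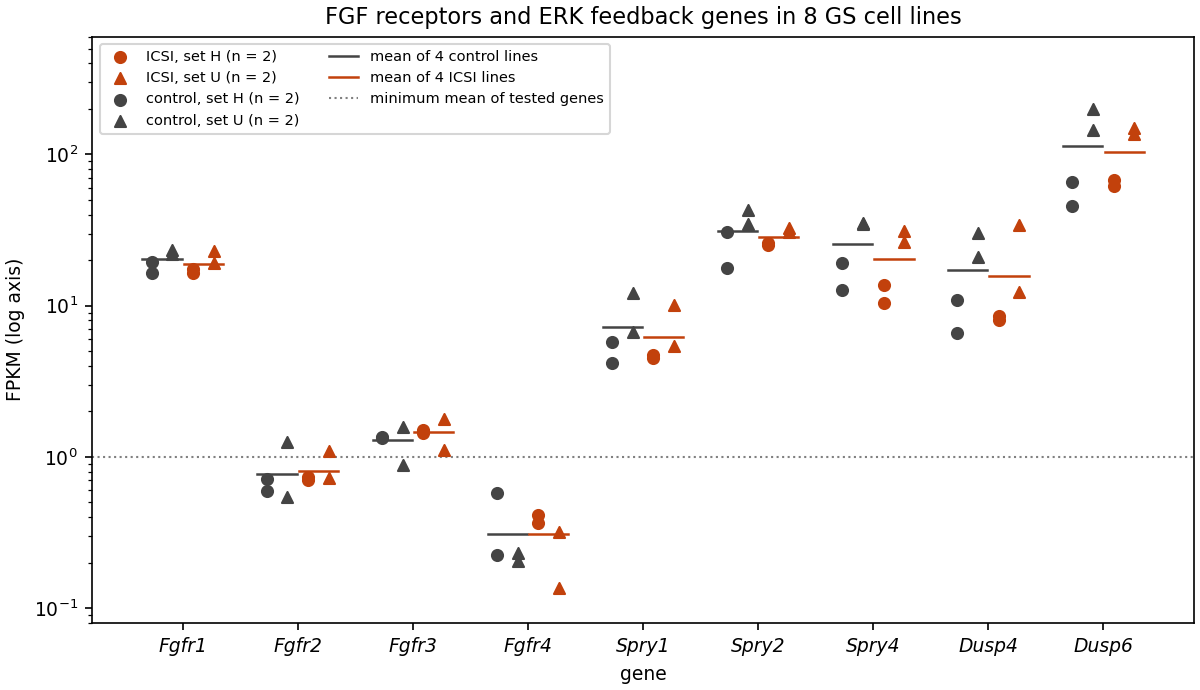
FPKM (log axis) of the 9 genes in each of 8 GS cell lines. Circles are lines of set H and triangles lines of set U, in grey for control and orange for ICSI, with a bar at the mean of 4 lines per group and a dotted line at 1 FPKM. Dusp6 is highest and Fgfr4 lowest, and group means lie close together. Triangles lie above all circles for Spry4, Dusp4 and Dusp6, as for 16.0% of the 12000 genes with a mean of 1 FPKM or more.

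By mean over the 8 lines the order was Dusp6 (109 ± 55.3 FPKM, SD, n = 8), Spry2 (30.0 ± 7.40), Spry4 (23.0 ± 10.3), Fgfr1 (19.7 ± 2.82), Dusp4 (16.4 ± 10.6), Spry1 (6.68 ± 2.88), Fgfr3 (1.37 ± 0.279), Fgfr2 (0.794 ± 0.247) and Fgfr4 (0.309 ± 0.141). Neighbors in this order were compared within lines on the log2(FPKM + 1) scale with an exact two-sided sign-flip permutation test, adjusted over the 8 pairs, whose smallest unadjusted p is 0.0078. The pairs were picked from the same values, so these p-values describe the 8 lines and are no independent test of the order. Of the 8 pairs, 5 differed. Dusp6 was above Spry2 by 1.69 in 8 of 8 lines, and the same held for Dusp4 over Spry1 (1.04), Spry1 over Fgfr3 (1.63) and Fgfr2 over Fgfr4 (0.45), each with an exact permutation p of 0.0156 after adjustment. Fgfr3 was above Fgfr2 in 7 of 8 lines (difference 0.41, adjusted exact permutation p = 0.0375). Spry2 and Spry4 (difference 0.46, adjusted exact permutation p = 0.0833), Spry4 and Fgfr1 (0.097, 0.609) and Fgfr1 and Dusp4 (0.46, 0.107) did not pass over the 8 lines pooled. That spread includes the title sets. Fgfr1 had a mean of 17.5 FPKM in set H and 21.9 in set U, beside 14.0 and 32.0 for Spry4 and 8.54 and 24.3 for Dusp4. The order of these means thus differed between the sets. Among 12000 genes whose mean was 1 FPKM or more, 97.8% had a lower mean than Dusp6, 84.1% a lower mean than Spry2 and 5.52% a lower mean than Fgfr3.

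Sequence upstream of the start was taken from RefSeq (GRCm38.p6) for Fgfr2, Fgfr3 (2 starts), Fgfr4, Spry1, Spry2 and Dusp6. The 250 bases before the start are shown for Dusp6 and Spry2, the members with the highest mean levels, and for Fgfr4, the only one of the 6 genes with a match to the ETS motif CCGGAA on either strand. Factors of the ETS family, among them ETV4 and ETV5, act downstream of ERK. Capitals mark the motif. The Dusp6 window is chr10:99262981-99263230 (plus strand), the Spry2 window chr14:105896820-105897069 (minus strand) and the Fgfr4 window chr13:55152568-55152817 (plus strand), whose RefSeq start lies inside the gene as GENCODE places it.
Dusp6: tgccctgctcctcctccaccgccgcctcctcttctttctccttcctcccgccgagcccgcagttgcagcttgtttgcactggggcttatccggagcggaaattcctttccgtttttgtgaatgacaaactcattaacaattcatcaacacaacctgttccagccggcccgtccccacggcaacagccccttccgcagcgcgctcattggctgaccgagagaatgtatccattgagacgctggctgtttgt
Spry2: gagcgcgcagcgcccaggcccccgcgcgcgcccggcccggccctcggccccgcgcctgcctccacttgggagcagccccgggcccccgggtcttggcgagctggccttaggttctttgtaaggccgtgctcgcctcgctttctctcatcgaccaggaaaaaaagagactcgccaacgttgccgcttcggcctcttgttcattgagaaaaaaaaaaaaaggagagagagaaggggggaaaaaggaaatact
Fgfr4: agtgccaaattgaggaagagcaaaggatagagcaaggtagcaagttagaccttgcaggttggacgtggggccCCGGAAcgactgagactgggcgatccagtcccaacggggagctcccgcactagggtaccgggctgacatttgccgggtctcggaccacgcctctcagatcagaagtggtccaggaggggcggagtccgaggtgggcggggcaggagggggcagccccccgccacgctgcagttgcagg
The match in Fgfr4 began at position -178 from the start. Of 32851 RefSeq windows of this length, 12.03% held the ETS motif on either strand. The AP-1 motif TGANTCA, the CRE TGACGTCA and the CArG box were searched in the same way and were in 6.75%, 1.55% and 1.47% of windows. None of the windows of the 6 genes held any of these 3 motifs, which says only that these letters are not in these 250 bases. The same limit holds for the ETS letters CCGGAA in the windows without a match. No shorter or variant form of the ETS motif was searched.

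The study derived these lines to ask whether ICSI changes gene expression in the germline of the offspring. No receptor or feedback gene passed the test between ICSI-F1 and control-F1 lines. The groups were compared with limma on log2(FPKM + 1), in which the difference of low genes is understated, with Benjamini-Hochberg adjustment over the 12000 genes whose mean was 1 FPKM or more. Fgfr2 and Fgfr4 lay under that minimum and were not tested, which left 7 of the 9 genes. Of the 7, 0 passed an adjusted p of 0.05, where 0% of all genes tested did (0 of 12000). The unadjusted p was under 0.05 for 55 genes, none of them among the 7, and limma-voom on recovered reads gave 0 and 51 genes. Neither fit held the title set as a term. With it as covariate in limma, 0 of 12000 genes passed and 140 had an unadjusted p under 0.05. Whether any of the 7 were among the 140 is not given here.

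Among the receptors, Fgfr1 was at 20.4 ± 3.05 FPKM in control-F1 and 18.95 ± 2.82 FPKM in ICSI-F1 lines (SD over 4 lines each; difference on the log2 scale -0.099, 95% interval -0.42 to 0.22). Fgfr3 was at 1.29 ± 0.288 and 1.46 ± 0.283 FPKM (log2 difference 0.11, interval -0.22 to 0.43). These intervals leave room for a ratio of FPKM + 1 between 0.749 and 1.16 for Fgfr1 and between 0.856 and 1.35 for Fgfr3. Fgfr2 was at 0.774 ± 0.327 and 0.813 ± 0.184 FPKM and Fgfr4 at 0.310 ± 0.179 and 0.308 ± 0.120 FPKM.

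The feedback genes were less tightly bounded in this fit without the title set, whose intervals include the spread between the sets. With both terms fitted, group and title set have the same standard error, since the lines are balanced. It was 0.16 for Dusp6 and 0.14 for Spry4, beside 0.47 and 0.40 for the group without the title set. Dusp6 was at 114 ± 70.8 FPKM in control-F1 and 104 ± 45.4 FPKM in ICSI-F1 lines (log2 difference -0.0051, 95% interval -1.07 to 1.06, ratio 0.477 to 2.08). Spry4 was at 25.5 ± 11.4 and 20.4 ± 9.97 FPKM (log2 difference -0.32, interval -1.23 to 0.58), and Dusp4 at 17.1 ± 10.5 and 15.7 ± 12.4 FPKM (-0.16, -1.32 to 1.00). Spry2 was at 31.4 ± 10.5 and 28.6 ± 3.68 FPKM (-0.069, -0.60 to 0.46) and Spry1 at 7.18 ± 3.44 and 6.19 ± 2.61 FPKM (-0.16, -0.85 to 0.52). The fitted differences of the 5 genes were below 0, with a median of -0.16 beside -0.013 over all genes tested, but that of Dusp6 was above 0 after TPM, median-of-ratios or quantile scaling and in limma-voom. Over the 9 genes the exact two-sided permutation p ranged from 0.429 for Fgfr3 to 1.0 for Fgfr4 and Dusp6 over 70 assignments, whose smallest p is 0.0286. The limma adjusted p was 1.0 for each of the 7 genes tested.

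Within the title sets the ICSI difference of Dusp6 and Spry2 changed sign. For Dusp6 it was 0.24 in set H and -0.25 in set U, and for Spry2 0.13 and -0.27 (2 lines against 2, with no test). For Spry4 it was -0.37 and -0.28, for Dusp4 -0.046 and -0.27, and for Spry1 -0.066 and -0.26. The interaction of group and title set was past an adjusted p of 0.05 in limma for 0 of the 7 genes, where 0% of 12000 genes passed. A total of 147 genes had an unadjusted p under 0.05 for it, none among the 7, and limma-voom gave 0 and 125. Its 95% interval was -1.18 to 0.21 for Dusp6 and -1.18 to 0.38 for Spry2.

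**Figure D2:**
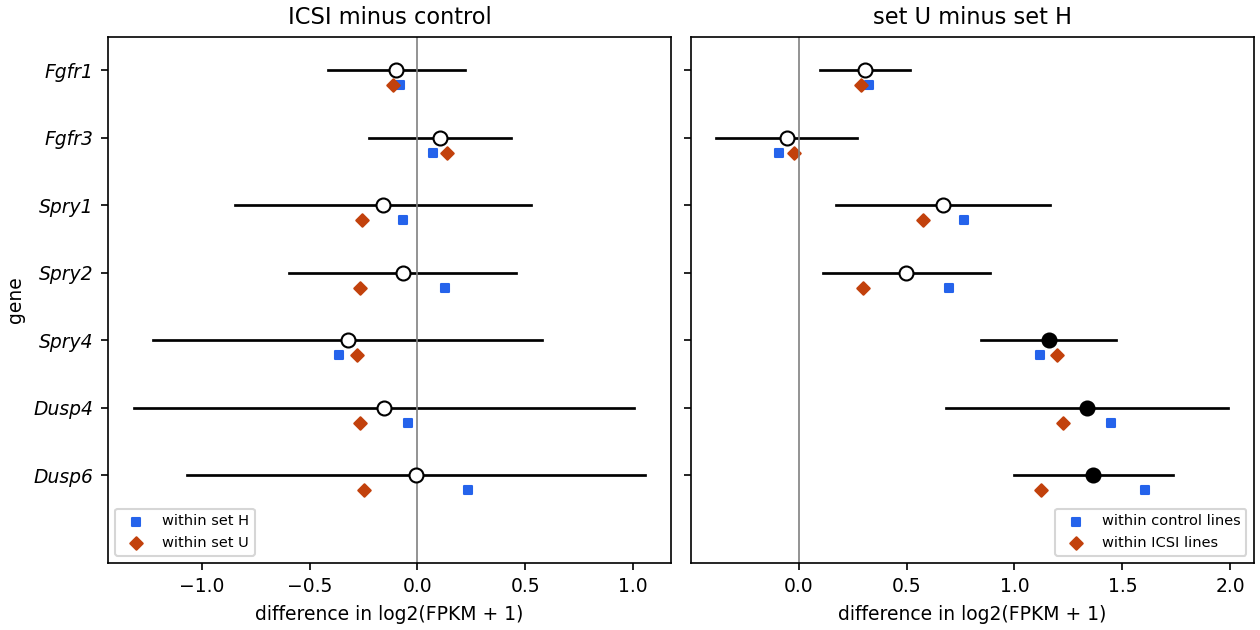
Differences in log2(FPKM + 1) of the 7 genes tested, ICSI minus control (left) and set U minus set H (right). Circles with lines are the limma estimate and its 95% interval, filled where the adjusted p is under 0.05; squares and diamonds are the differences within each title set (left) or group (right). All intervals on the left are from the fit without the title set and include 0. Spry4, Dusp4 and Dusp6 are filled on the right at 1.16 to 1.36.

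Between the title sets 3 feedback genes passed the test and no receptor did. With the group as covariate, Dusp6, Spry4 and Dusp4 were higher in set U, 3 of the 7 genes tested, where 10.2% of all genes tested were called higher (1226 of 12000). None of the 7 was lower, where 5.76% were (691 of 12000). Dusp6 rose from 60.5 ± 10.05 to 157 ± 28.1 FPKM (SD over 4 lines; difference 1.36 ± 0.16 SE on the log2 scale, limma adjusted p = 0.00792). Spry4 rose from 14.0 ± 3.68 to 32.0 ± 4.18 FPKM (1.16 ± 0.14 SE, limma adjusted p = 0.00792), and Dusp4 from 8.54 ± 1.82 to 24.3 ± 9.70 FPKM (1.34 ± 0.29 SE, limma adjusted p = 0.0225). For these 3 genes the lines of set U lay above those of set H without overlap, as 16.0% of all genes tested did.

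The other feedback genes did not pass. Spry1 was at 4.80 ± 0.680 and 8.57 ± 3.07 FPKM (log2 difference 0.67, limma adjusted p = 0.0674) and Spry2 at 24.8 ± 5.37 and 35.1 ± 5.31 FPKM (0.50, limma adjusted p = 0.0763). The 5 feedback genes had a median difference of 1.16, beside 0.028 over all genes tested, and it was 1.08 to 1.21 under the other scalings, the other pseudocount and limma-voom. Among the receptors, Fgfr1 was at 17.5 ± 1.47 and 21.9 ± 1.90 FPKM (0.31, limma adjusted p = 0.0539) and Fgfr3 at 1.40 ± 0.0747 and 1.34 ± 0.417 FPKM (-0.056, limma adjusted p = 0.804). Fgfr2, not tested, was at 0.685 ± 0.0632 and 0.902 ± 0.327 FPKM and Fgfr4 at 0.394 ± 0.146 and 0.223 ± 0.0756 FPKM. The difference had the same sign in both groups. It was 1.61 in control-F1 and 1.12 in ICSI-F1 lines for Dusp6, 1.12 and 1.199 for Spry4, and 1.45 and 1.22 for Dusp4.

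The calls of Dusp6 and Spry4 held in all 17 alternatives run, with adjusted p up to 0.0341 and 0.0393 in limma, and that of Dusp4 held in 10 of 17. Dusp4 lost its call without control line 37 (limma adjusted p = 0.0728), control line 44 (0.0512), control line 45 (0.0510), ICSI line 11 (0.0671) or ICSI line 17 (0.0646), without control lines 29 and 44 together (0.0664), and with no minimum level (0.0523). Over all genes tested the title set took a median of 33.8% of the sum of squares between lines and the group 2.95%. Over the 7 genes the medians were 69.3% and 3.15%, with 91.0% for Dusp6 and 85.5% for Spry4 and 2.96% for Fgfr3. The number of genes called higher and lower in set U moved from 1226 and 691 to 1019 and 972 under quantile normalization and to 1073 and 896 with median-of-ratios scaling.

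The wider pathway was described with 6 lists holding 94 genes beside the 9, by counts and medians only. In the ICSI comparison, fitted without the title set, no gene of the 6 lists passed in limma, and none was below 0.05 before adjustment. In the title set comparison each list held genes that were higher in set U and none that was lower, although under other scalings the RAS-ERK cascade held 1 or 2 lower genes. The share called higher was 25% of the ligands tested, 11.1% of the co-receptors, 23.8% of the cascade, 30.8% of the other inhibitors, 25% of the ERK targets and 71.4% of the GDNF list, beside 10.2% of all genes tested. That of the co-receptors is near the share of all genes and is no result about them.

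Of 22 FGF ligand genes 4 were tested, and Fgf9 was higher, from 0.366 ± 0.168 to 1.95 ± 0.781 FPKM (log2 difference 1.08, limma adjusted p = 0.0172). Fgf7 was highest at a mean of 2.86 FPKM, followed by Fgf13 at 1.58 and Fgf18 at 1.32 FPKM. Fgf2, whose product was supplied in the medium, had a mean of 0.799 FPKM. Of 12 co-receptor and heparan sulfate carrier genes, whose products help FGFs bind their receptors, 9 were tested with a median of 0.35. Gpc4, a glypican, was higher, from 14.2 ± 1.70 to 22.9 ± 2.41 FPKM (0.66, limma adjusted p = 0.0128), whereas Sdc4, the most abundant syndecan at a mean of 448 FPKM (0.35, limma adjusted p = 0.239), and Sdc1 at 22.4 FPKM (0.64, limma adjusted p = 0.0508) did not pass.

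Of 22 RAS-ERK cascade genes 21 were tested, with a median of 0.12, and 5 were higher. Among them were Map2k1, encoding the ERK kinase MEK1, the adaptor Grb2 and the ribosomal S6 kinase Rps6ka3. Their differences were 0.27 to 0.38, with adjusted p of 0.0369 to 0.0440 in limma. The call of Map2k1 was not followed through the alternatives. Mapk3, which encodes ERK1, was at 41.0 ± 2.54 and 38.5 ± 4.601 FPKM (log2 difference -0.093, limma adjusted p = 0.534). The count of higher genes in the list was 1 under quantile normalization and 2 after rescaling to TPM.

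Of 14 other inhibitors of the pathway 13 were tested, with a median of 0.12, and 4 were higher: Dusp7, another cytoplasmic ERK phosphatase (from 12.6 ± 1.49 to 24.8 ± 5.15 FPKM, log2 difference 0.92, limma adjusted p = 0.0104), Spred1, a Sprouty-related inhibitor (0.71, 0.0126), Il17rd (0.47, 0.0435) and the RAS GTPase-activating gene Rasa1 (0.46, 0.0283). Dusp5 (mean 70.8 FPKM, 0.55), Pebp1 (54.8 FPKM, 0.12) and Dusp9 (44.6 FPKM, 0.12) did not pass. Spry3, the remaining Sprouty gene, was listed at 0 in all 8 lines.

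Of 17 transcription factors and other targets induced by ERK 16 were tested, with a median of 0.21, and 4 were higher. Etv5, an ETS factor needed for self-renewal of spermatogonial stem cells, rose from 40.8 ± 9.26 to 90.7 ± 8.90 FPKM (log2 difference 1.16, limma adjusted p = 0.00792). Epha2 (1.10, 0.0365), Egr2 (0.97, 0.0144) and Egr3 (0.80, 0.0365) rose as well. The immediate early genes Egr1 (mean 177 FPKM, 0.28), Fos (82.8 FPKM, -0.15) and Junb (66.9 FPKM, 0.55) did not pass, with adjusted p of 0.243 to 0.728 in limma. Of 7 genes for the GDNF receptor and its targets, all tested, 5 were higher with a median of 0.67, among them the transcription factors Lhx1 (1.66, limma adjusted p = 0.00819) and Id4 (1.11, 0.0210) and the receptor chains Gfra1 (0.67, 0.0216) and Ret (0.66, 0.0371). Bcl6b, the highest of them at a mean of 127 FPKM, did not pass (0.74, limma adjusted p = 0.121).

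The calls of Etv5, Dusp7, Spred1 and Lhx1 held in all 17 alternatives run. Those of Gpc4 (16 of 17), Egr2 (15), Id4 (14), Gfra1 (12) and Fgf9 (12 of 16) were lost in some, with adjusted p up to 0.0740 in limma, and each of these without control line 37. Fgf9 and Gfra1 also lost theirs without ICSI line 11 or 17, Id4 without ICSI line 11 and Gfra1 without control line 44. The calls of Egr3 (9 of 17), Epha2, Il17rd, Rasa1 and Ret (8 each), Grb2 (7) and Rps6ka3 (6) were lost in about as many alternatives as kept them or in more, with adjusted p up to 0.138 in limma. Leaving out control line 29, 37, 44 or 45 or ICSI line 17 each ended the call of all 7, leaving out ICSI line 11 ended that of all but Egr3 and ICSI line 20 that of all but Grb2, and with no minimum level none of the 7 passed.

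**Figure D3:**
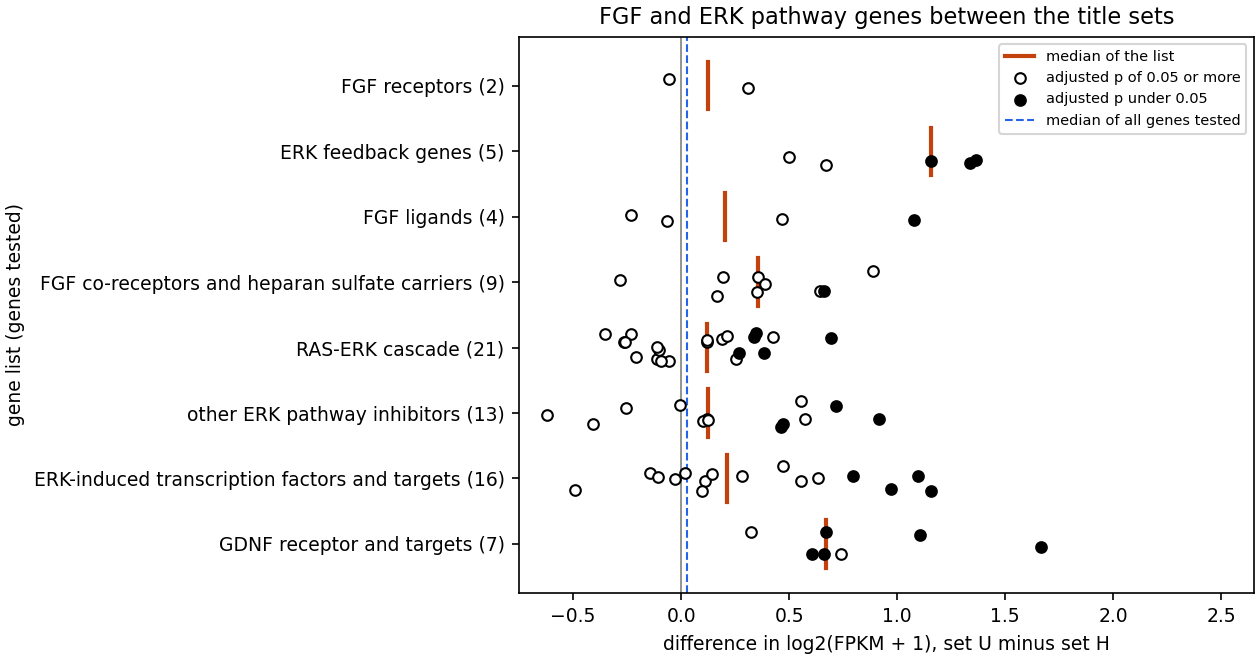
Differences in log2(FPKM + 1), set U minus set H, for each tested gene of the receptors, the feedback genes and 6 other pathway lists. Filled points have an adjusted p under 0.05, orange bars are list medians, and the dashed line is the median of all 12000 genes. The feedback genes have the highest median, at 1.16.

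Markers of other cells were read beside these results, since fewer cells of a type and less RNA per cell cannot be told apart in bulk samples. All 14 markers of undifferentiated spermatogonia were above 1 FPKM on average, with Ddx4, a germ cell RNA helicase, at 173 to 274 FPKM. Their sum was 1209 to 1608 FPKM in control-F1 and 1191 to 1617 FPKM in ICSI-F1 lines, and 1191 to 1395 in set H against 1425 to 1617 in set U. Between the sets 7 of the 14 were higher and 1, Pou5f1, was lower, where 10.2% of all genes tested were higher and 5.76% lower. The counts were 4 and 2 under quantile normalization, and 6 and 1 after rescaling to TPM or in limma-voom. Of the 14, 3 (Gfra1, Ret, Id4) are also in the GDNF list. The part of the 14 markers in the differences of the feedback genes was not tested. Of 7 markers of differentiation and meiosis, Kit was lower and Sycp3 and Sycp1 were higher. Under quantile normalization 1 was higher and 2 were lower.

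All 18 fibroblast markers were detected in every line, and their sum was 210 to 804 FPKM in control-F1 and 263 to 471 FPKM in ICSI-F1 lines. It was 255 to 804 FPKM in set H and 210 to 708 FPKM in set U, and 0 of the 18 were called in either comparison. Col1a1 ranged from 28.7 to 136 FPKM. Without control lines 29 and 44, which had the highest sums, 0 of the 7 genes passed between ICSI and control and 2, Dusp6 (1.12) and Spry4 (1.08), were higher in set U. The part of fibroblast RNA in the Fgfr1 level was not tested.

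Markers of somatic testis cells were low. Cyp17a1, a Leydig cell enzyme, was listed at 0 in all 8 lines, Insl3 in 7 and the Sertoli cell receptor gene Fshr in 7, and Ptprc had a mean of 0.0891 FPKM. The summed levels were 5.03 to 8.98 FPKM for 7 Sertoli cell markers in control-F1 and 5.05 to 5.89 FPKM in ICSI-F1 lines, 0.669 to 1.80 and 1.16 to 1.89 FPKM for 5 Leydig cell markers, 5.17 to 17.3 and 5.49 to 8.70 FPKM for 4 macrophage markers, mostly Cd68, and 2.07 to 8.19 and 3.88 to 5.34 FPKM for 3 endothelial markers. Between the title sets the endothelial sums did not overlap (2.07 to 5.23 against 5.24 to 8.19 FPKM), with Kdr called higher, and the Leydig sums did not overlap in the opposite direction (1.36 to 1.89 in set H against 0.669 to 1.28 FPKM in set U). Sox9 was higher and Wt1 lower among the Sertoli cell markers. Their part in the differences of the feedback genes was not tested.

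Genes whose pattern over the 8 lines was most like that of the feedback genes were sought after the mean of each title set was removed. By Pearson's r with the mean log2(FPKM + 1) of the 5 feedback genes these were Dmrt2 (0.98), Rab22a (0.97), Slc40a1 (0.97), Trf (0.96) and Lmbrd1 (0.96). For the mean of Fgfr1 and Fgfr3 they were Tgds (0.97), 2810408A11Rik (0.97), 2810402E24Rik (0.96), Tnfrsf19 (0.96) and Purg (0.96). The values are the highest of about 12000 and share libraries and depth, so they only describe these 8 lines.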

How the data were processed

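RNA-Seq of 8 GS cell lines was analysed, 4 control and 4 ICSI, grouped by their titles. The authors mapped single reads to mm10 with STAR, counted them with htseq-count and deposited FPKM values, scaled between samples; the tool versions that their processing notes name differ between the title sets, as given above. Labels and methods name different library kits. The authors' own fold change and adjusted p-value columns (DESeq2) in the table were not used. Reads were recovered as whole multiples of each gene's step (tolerance 0.05 reads, 100.0% of the 12000 genes tested).

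Genes whose mean was 1 FPKM or more were fitted with limma 3.58.1 in R 4.3.3 (trended eBayes, two-sided) on log2(FPKM + 1), for group, for title set with group as covariate, and for their interaction. The fit was tested on simulated data. No count model was the main test, since the values are FPKM. Alternatives were a pseudocount of 0.1, no filter, a mean of at least 5 FPKM, TPM, quantile and median-of-ratios scaling, limma-voom on recovered reads, another covariate, and leaving out each line. One further alternative, without control lines 29 and 44, was chosen after seeing the data.

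The genes named are the 9, the 3 highest of each pathway list and up to 4 called between title sets by size, the 5 likest genes, and markers. Some genes that this rule names are not reported here. The 9 genes and the lists were chosen with earlier results of these data known. Positions are from GENCODE M21 (GRCm38, the assembly of mm10), and promoter sequences from RefSeq (GRCm38.p6).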

Additional observations from a re-analysis of the deposited data

Results flagged for a closer look

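Among 18 groups of 4 FPKM values, 4 held a line far from the other 3. Its gap to the nearest line was above Dixon's 95% limit, which about 1 in 20 groups of independent normal values pass. Each group mixed the title sets and the genes shared libraries, so the count cannot be set against that rate. Of the 4 lines, 3 were ICSI line 20. On the log2(FPKM + 1) scale of the tests, the gaps of Dusp4 and Spry1 in that line were under the limit. That of Fgfr2 was above it. Dusp4 was at 34.1 FPKM in ICSI line 20, with the other ICSI lines at 8.001 to 12.4 FPKM. Spry1 was at 10.1 FPKM in ICSI line 20, with the others at 4.54 to 5.39 FPKM. Fgfr2 was at 1.09 FPKM in ICSI line 20, with the others at 0.699 to 0.738 FPKM. Fgfr4 was at 0.577 FPKM in control line 37, with the other control lines at 0.205 to 0.233 FPKM. The fibroblast markers summed to 471 FPKM in ICSI line 20, the highest of the ICSI lines (263 to 363 FPKM in the others). The same line had the highest sum of undifferentiated spermatogonia markers of the 8 lines (1617 FPKM). It had the lowest mean log2(FPKM + 1) of the differentiation markers (3.89). By summed FPKM these were not lowest, at 298 beside 276 in ICSI line 17 and 287 in control line 45. ICSI line 20 is 1 of 2 lines of its group in set U, whose titles have low lines between the words. The part of these measures in its values was not tested.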

How the results depend on the processing

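The number of the 7 genes called between ICSI and control lines was 0, and for the interaction 0, in every alternative run. Between title sets it was 3 as reported, 5 without a covariate, 2 to 5 without single lines (5 without ICSI line 21, where Fgfr1 and Spry1 also passed), and 2 to 4 otherwise. The ICSI difference changed sign in some alternative for each of the 9 genes but Fgfr1 and Spry4, and none of these values was called. That of Dusp6 became 0.014 after rescaling to TPM, 0.0086 with limma-voom, 0.0041 with median-of-ratios scaling and 0.026 with quantile normalization. Without single lines the differences ranged from -0.36 to 0.34 for Dusp6, -0.59 to 0.17 for Dusp4, -0.39 to 0.094 for Spry1 and -0.31 to 0.098 for Spry2. Without control lines 29 and 44 they were 0.20 for Spry2 and -0.0046 for Fgfr3. The title set difference of Fgfr3 became 0.039 with quantile normalization and 0.030 without control lines 29 and 44, and ranged from -0.14 to 0.040 without single lines. Fgfr1 passed between title sets in 3 alternatives, Spry1 in 2 and Spry2 in 0. The number of neighbors that differed was 4 or 5 of 8. Genes called higher and lower between title sets ranged from 172 and 38 without ICSI line 11 to 1615 and 1076 without ICSI line 21, and were 761 and 494 of 23964 with no filter. The cause of these changes was not tested. No paired analysis was possible because the groups share no replicate numbers. FGF receptors at low level are limited by depth, with 15 to 51 reads behind Fgfr4.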
